A study of Mus musculus with 6 samples.

Results

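The cytochrome P450 genes of families 1 to 4 were examined in the intestinal crypts of WT and Mtg16-/- mice. The members were all gene symbols composed of Cyp, a family number from 1 to 4, a subfamily letter and a gene number. This rule used no measured value and picked 75 of the 24736 symbols that were deposited, in 21 subfamilies. Another 5 symbols of these families end in a letter and fell outside the rule, and their level was at most 0.09 TPM (transcripts per 1000000 transcripts) in any library. Levels are given as TPM, which are scaled by transcript length and to the same total in each library, so that levels of different genes can be compared.

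RNA sequencing was performed on crypt epithelium of 3 WT mice and 3 Mtg16-/- mice, with 1 library per mouse. All were males of 12 weeks, and the crypts were released from the whole length of the gut with 2 mM EDTA for 30 minutes according to the labels. MTG16 is a transcriptional co-repressor encoded by Cbfa2t3, and the study asked how its loss alters gene expression in crypts. The labels give no treatment for the WT mice and call the knockout CRISPR-induced, whereas the study's methods name Mtg16-/- mice that were a gift. Neither source gives the strain background, a Cre driver or another allele. The replicates are separate mice, and p-values measure the spread between these 6 animals.

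Cytochrome P450 enzymes are haem proteins, mostly of the endoplasmic reticulum, that insert an oxygen atom into their substrates using electrons from NADPH by way of cytochrome P450 oxidoreductase. Families 1 to 3 oxidise drugs, pollutants, steroids and arachidonic acid, and family 4 hydroxylates fatty acids and eicosanoids at the end of the chain. In the intestine these enzymes are found mainly in absorptive enterocytes, and several of the genes are induced through ligand-activated receptors such as AHR, PXR and CAR.

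Cbfa2t3, on chromosome 8 from 122625136 to 122699332, was at a TPM of 3.67, 6.69 and 4.52 in WT mice and of 4.62, 6.43 and 3.23 in the mice labelled Mtg16-/-. Its gene-level TPM did not distinguish the genotypes (log2 fold change -0.06, standard error (SE) 0.27, adjusted p = 0.937 from limma), so every direction below rests on the labels. Pearson's r between libraries, across 12268 genes, lay between 0.931 and 0.980. WT replicate 1 stood apart from the other libraries in the summed TPM of 20 enterocyte markers, which was 48751, 17310 and 21253 in WT replicates 1 to 3 and 17169, 9871 and 8795 in the mice labelled Mtg16-/-. For this reason, results are also given without WT replicate 1. Counts of groups that did not overlap with a mouse left out were added after seeing the data. TPM keep no read number, so that the depth of the libraries is unknown.

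Of the 75 members, 24 were listed at 0 in all 6 libraries and 24 were above 0 with a mean TPM under 1 over the 6 libraries. The remaining 27 members, from 14 subfamilies, had a mean TPM of at least 1 and were tested. The tested members covered a wide range of levels. The mean TPM was at least 50 in 11 of the 27 members and at least 10 in 18, and it was under 5 in 8. The highest mean was that of Cyp4f14 at 411, followed by Cyp3a13 at 157, Cyp4v3 at 142, Cyp2d26 at 101 and Cyp3a11 at 98.4 in the next places. Cyp4f14 was the highest member in all 6 libraries, but each gap between neighbours in this order of means was smaller than the WT SD of the higher gene. These 5 genes made up 63.7%, 58.3% and 59.1% of the summed member TPM in WT replicates 1 to 3 and 55.5%, 52.6% and 50.8% in the mice labelled Mtg16-/-. The groups did not overlap in this share, which was computed after the values were seen and has no test.

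**Figure D1:**
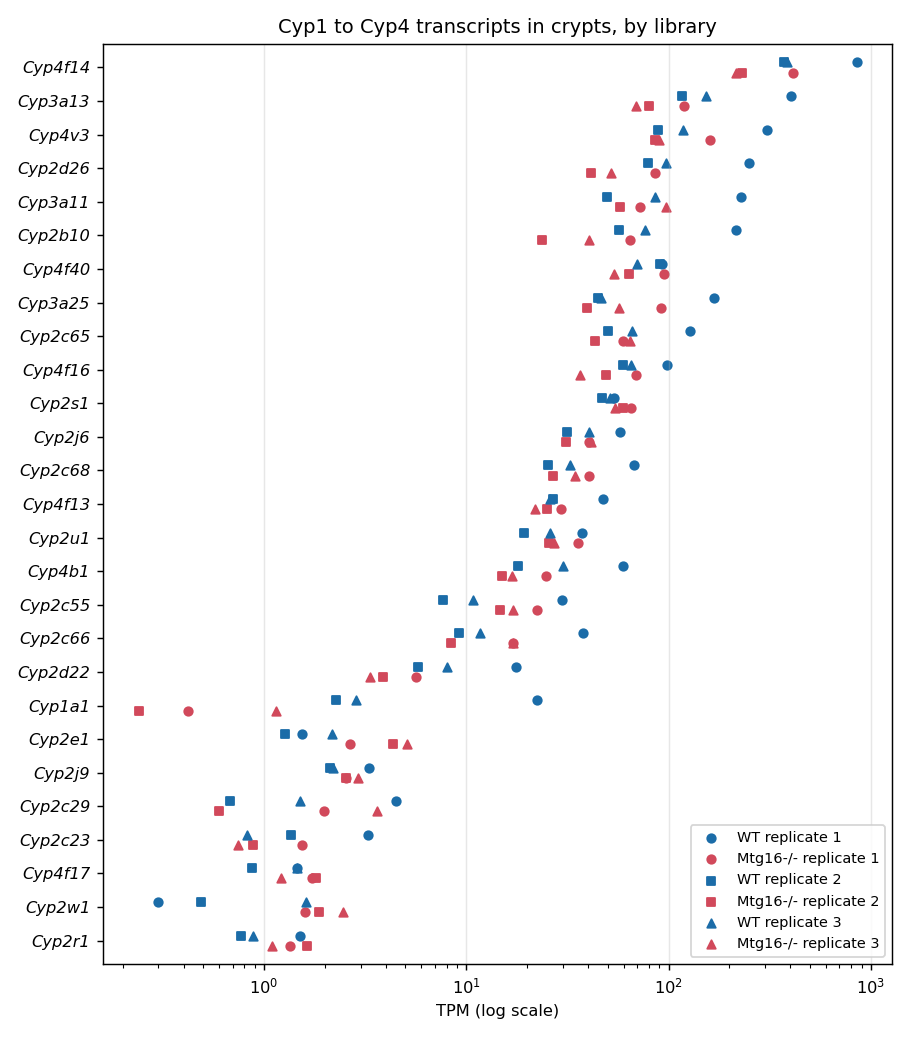
TPM of the 27 tested cytochrome P450 genes of families 1 to 4 on a log axis, with 1 point per library, ordered by the mean over the 6 libraries. Blue marks WT, red marks the mice labelled Mtg16-/-, and the shape of the point gives the replicate number. WT replicate 1 is the highest point for 21 of the 27 genes, and the groups are apart only for Cyp1a1, Cyp2d22, Cyp2e1 and Cyp2s1.

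At an adjusted p under 0.1 in limma, no member was called in either direction, beside a background of 0.0163% of all 12268 tested genes called lower, 0.0163% called higher and 0.0326% called in either direction. The adjusted p of the members lay between 0.263 and 0.987. With weights for library quality estimated by limma, 1 member was called lower (Cyp1a1, background 3.54%) and 1 higher (Cyp2e1, background 3.43%). With the replicate number as a block, 8 members were called lower (background 6.65%) and 1 higher (background 3.14%), as described in the last section. At an unadjusted p under 0.05, 6 members were lower in the mice labelled Mtg16-/- (22.2% of 27, background 8.05%) and 2 were higher (7.41%, background 6.53%). The 6 lower members were Cyp1a1, Cyp2b10, Cyp2d22, Cyp2d26, Cyp3a13 and Cyp4f14, and the 2 higher members were Cyp2e1 and Cyp2w1. Of these, Cyp1a1 (mean TPM 0.60 in the mice labelled Mtg16-/-) and Cyp2w1 (0.80 in WT) passed the filter only through the group with the higher values. Without WT replicate 1 the lower count was 3 (Cyp1a1, Cyp2d22 and Cyp3a13, background 6.13%) and the higher count 2 (Cyp2e1 and Cyp2c55, background 5.31%), while Cyp2w1 no longer passed (unadjusted p = 0.103 from limma). The lower count was 0 without Mtg16-/- replicate 2 (background 4.94%) and 1 without Mtg16-/- replicate 3 (background 4.07%). The higher count was 1 without WT replicate 2 (background 5.09%), without Mtg16-/- replicate 2 (background 3.44%) and without Mtg16-/- replicate 3 (background 4.53%).

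The groups did not overlap for 4 members. Cyp1a1 and Cyp2d22 were lower in every mouse labelled Mtg16-/- than in every WT library (7.41% of 27, background 11.1%). Cyp2e1 and Cyp2s1 were higher (7.41%, background 9.94%). Both member percentages were below their backgrounds. The counts of members with groups apart were 2 lower (background 16.9%) and 5 higher (background 14.6%) without WT replicate 1. Leaving out WT replicate 2 gave 7 lower members (background 19.5%), and leaving out Mtg16-/- replicate 1 gave 10 (background 20.5%). In sign, 19 of the 27 members had a log2 fold change below 0 (70.4%, background 53.6%), with a median of -0.28 against -0.03 over all tested genes. Without WT replicate 1, the number below 0 was 12 of 27 (background 54.6%) and the median was 0.06, so the negative median rested on that library.

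WT replicate 1 had the highest TPM of all 6 libraries for 21 of the 27 tested members, and each of the mice labelled Mtg16-/- was highest for 2. The summed TPM of the 75 members was 3193 in WT replicate 1, 1217 and 1417 in WT replicates 2 and 3, and 1527, 942 and 1031 in the mice labelled Mtg16-/-. The sum thus overlapped between the groups. WT replicate 1 was also the highest of the 6 in the sum of the enterocyte markers, but the order of the other libraries differed. Mtg16-/- replicate 1 was above WT replicates 2 and 3 in the P450 sum. In the marker sum it was below both, at 17169 against 17310 and 21253, so that the groups did not overlap there. Of these 20 markers, which include the lipid carriers Fabp1 and Rbp2, 12 were lower at an unadjusted p under 0.05 (background 8.05%) and none was higher (background 6.53%). Their median log2 fold change was -1.12. In 9 markers of the proximal small intestine, 7 were lower (median -1.25, background 8.05%), with sums of 11934, 3710 and 4942 in WT and 2636, 1287 and 1568 in the mice labelled Mtg16-/-. The lists are not separate, since Apoa4, Fabp1 and Lct are on both and make up most of the second sum. The part of cell composition in the differences between P450 genes was not tested, and in bulk tissue fewer cells of a type and less RNA per cell cannot be told apart.

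**Figure D2:**
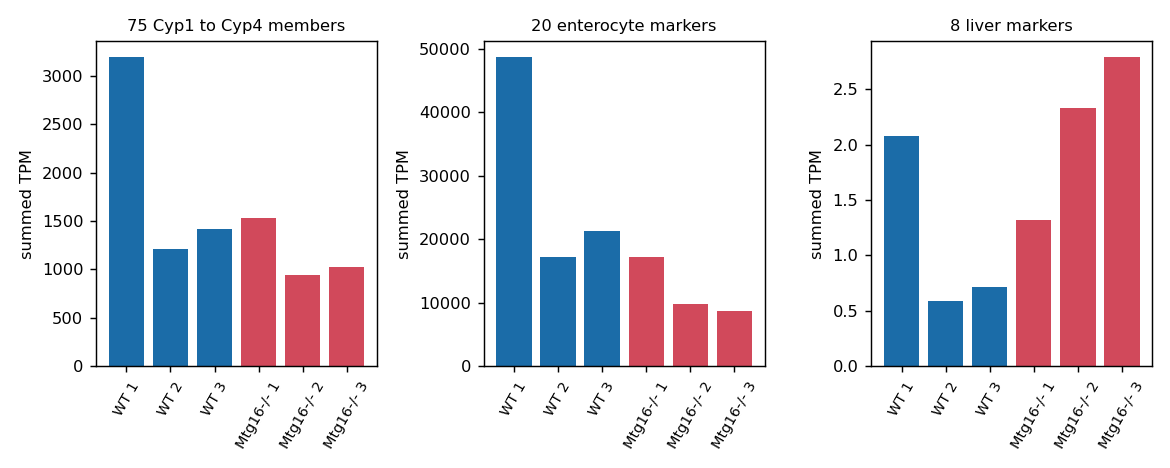
Summed TPM per library of the 75 cytochrome P450 members, of 20 enterocyte markers and of 8 liver markers, with 1 bar per library and a separate linear axis from 0 in each panel. WT replicate 1 is highest for the P450 members at 3193 and for the enterocyte markers at 48751, while the liver markers sum to at most 2.79.

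Cyp1a1 encodes the enzyme that oxidises polycyclic aromatic hydrocarbons and is the classical target of the aryl hydrocarbon receptor. It had the most negative log2 fold change of the 27 members. The gene passed the filter only through the WT mice, with a mean TPM of 9.14 in WT and 0.60 in the mice labelled Mtg16-/-. Its TPM was 22.3, 2.26 and 2.84 in the WT mice and 0.42, 0.24 and 1.14 in the mice labelled Mtg16-/-. WT replicate 1 was far above the other WT mice, and the lowest WT library was still above the highest of the other group. On the log2 scale Cyp1a1 differed by -2.09 (SE 0.69, adjusted p = 0.281 from limma), and by -1.19 without WT replicate 1 (SE 0.31, adjusted p = 0.297). The gene lies on chromosome 9 from 57687928 to 57703824 (GRCm38.p6). Its neighbour Cyp1a2, the main Cyp1a enzyme of liver, had a mean TPM of 0.060, and Cyp1b1, which is expressed mostly outside the liver, one of 0.020. Between the transcripts, 3.55% of the 50-base words of Cyp1a1 also occurred in Cyp1a2, so little of the signal could have been divided between them.

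The 250 bases before the Cyp1a1 start site used by RefSeq are shown because this member had the most negative fold change and is a textbook AHR target. They lie at chr9:57697363-57697612 (GRCm38.p6, plus strand), with a TATA element (TATAAA) in capitals 30 bases before the start. This window lies inside the gene span given above, so the span begins upstream of the start used here. The dioxin response element, to which AHR binds, was searched as TNGCGTG on both strands, and this form was not found in these 250 bases. Its shorter part GCGTG does stand in them, without the leading T, and was not counted. Bases further upstream were not searched, so elements there are not addressed. TNGCGTG was in 4.16% of 27025 mouse promoters of the same length and in 1 of the 62 members with a promoter entry.
Cyp1a1: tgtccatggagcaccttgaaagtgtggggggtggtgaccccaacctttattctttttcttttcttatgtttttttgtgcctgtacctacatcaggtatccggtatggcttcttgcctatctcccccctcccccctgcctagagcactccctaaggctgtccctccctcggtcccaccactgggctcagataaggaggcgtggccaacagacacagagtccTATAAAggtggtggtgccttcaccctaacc

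Cyp2b10, the classical target of the constitutive androstane receptor CAR, was at 217, 57.0 and 76.8 TPM in WT and at 64.6, 23.6 and 40.3 in the mice labelled Mtg16-/-. The groups overlapped through Mtg16-/- replicate 1, which was above WT replicate 2. Its log2 fold change of -1.29 had an SE of 0.51 (adjusted p = 0.314 from limma), and without WT replicate 1 it was -0.73 (SE 0.37). It is the only Cyp2b gene detected, since Cyp2b9, Cyp2b13, Cyp2b19 and Cyp2b23 were listed at 0 in all 6 libraries. Of its 50-base words, 9.69% were shared with other genes, mostly Cyp2b13.

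The Cyp2d cluster on chromosome 15 holds 9 members, of which only its outermost genes were tested. Cyp2d22, from 82370527 to 82380260, and Cyp2d26, from 82790107 to 82794452, lie at opposite ends of the cluster, and the 7 members between them had a TPM of 0 in all libraries or a mean of at most 0.102. Mouse Cyp2d enzymes are counted among the drug-oxidising P450s. Cyp2d26 had a TPM of 249, 78.9 and 97.0 in WT and of 85.3, 41.5 and 51.9 in the mice labelled Mtg16-/-, a log2 fold change of -1.11 (SE 0.43, adjusted p = 0.312 from limma). Only Mtg16-/- replicate 1, above WT replicate 2, kept the groups from being apart. Cyp2d22 was at 17.5, 5.77 and 8.05 in WT and at 5.61, 3.88 and 3.34 in the mice labelled Mtg16-/-, with a log2 fold change of -1.01 (SE 0.36, adjusted p = 0.297 from limma). Its groups did not overlap, by a margin of 5.61 against 5.77. Without WT replicate 1 the log2 fold change was -0.61 for Cyp2d26 and -0.59 for Cyp2d22, with SEs of 0.28 and 0.24, so the difference between them was smaller than these errors.

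The Cyp3a enzymes oxidise drugs and steroids, and Cyp3a11 is the textbook target of the pregnane X receptor PXR. The subfamily has 7 members, of which Cyp3a13, Cyp3a11 and Cyp3a25 were tested. Cyp3a13 had a TPM of 401, 117 and 153 in WT and of 119, 79.8 and 68.8 in the mice labelled Mtg16-/-. Mtg16-/- replicate 1 lay just above WT replicate 2, and the other 2 lay below all WT libraries. Relative to WT, the difference came to -1.14 on the log2 scale (SE 0.43, adjusted p = 0.307 from limma), and to -0.62 (SE 0.24) without WT replicate 1. Cyp3a11 had a TPM of 227, 49.8 and 86.1 in WT and of 72.2, 57.7 and 97.1 in the mice labelled Mtg16-/-. Cyp3a25 was at 169, 45.0 and 46.2 in WT and at 91.7, 39.4 and 56.7 in the others. For both genes WT replicate 1 was the highest library and the other 5 overlapped. Log2 fold changes were -0.42 for Cyp3a11 (SE 0.49) and -0.26 for Cyp3a25 (SE 0.52), and both were above 0 without WT replicate 1, at 0.17 and 0.37. Cyp3a13 differs from the other members in position, from 137892933 to 137925610 on chromosome 5, whereas Cyp3a11 lies from 145854607 to 145879854 and Cyp3a25 from 145977192 to 146009644 of the same chromosome. Whether its fold change differed from theirs was not tested. None of the 50-base words of Cyp3a13 occurred in another gene, whereas 14.8% of those of Cyp3a11 and 26.8% of those of Cyp3a25 did, the latter mainly in Cyp3a59, which had a mean TPM of 0.40. The values of Cyp3a11 and Cyp3a25 are therefore less certain. The summed TPM of the 7 Cyp3a members was 799, 213 and 287 in WT and 285, 177 and 223 in the mice labelled Mtg16-/-, a log2 difference of -0.70 (two-sided exact permutation test, p = 0.4, with 0.1 the smallest p that 3 mice against 3 allow).

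Family 4 supplied the most abundant member and the largest subfamily sum. Cyp4f14 hydroxylates leukotrienes and long-chain fatty acids, and its TPM was 851, 374 and 384 in WT and 411, 229.7 and 216 in the mice labelled Mtg16-/-. Mtg16-/- replicate 1 was above WT replicates 2 and 3, and the other libraries of that group were below all WT libraries. For Cyp4f14 this gave a log2 fold change of -0.86 (SE 0.36, adjusted p = 0.336 from limma), and of -0.47 (SE 0.27) without WT replicate 1. Its neighbours on chromosome 17 had fold changes closer to 0. Cyp4f16 was at 98.7, 59.7 and 65.2 in WT and at 68.7, 48.9 and 36.3 in the mice labelled Mtg16-/-, a log2 fold change of -0.54 (SE 0.26). Cyp4f40 was at 93.1, 90.7 and 70.2 against 95.5, 64.1 and 53.7 (log2 fold change -0.28, SE 0.22). Unlike most members, Cyp4f40 had its highest value in Mtg16-/- replicate 1. Cyp4f13 was at 47.5, 27.0 and 25.8 against 29.5, 25.0 and 21.9 (log2 fold change -0.33, SE 0.24). Of the other Cyp4f members, Cyp4f17 had a TPM from 0.87 to 1.80 and the remaining 4 a mean TPM under 1, Cyp4f37 being listed at 0. The words shared between Cyp4f16 and other genes, mainly Cyp4f37, came to 26.5%, so the division of reads between these genes is uncertain. Summed over the 9 Cyp4f members, TPM was 1093, 554 and 549 in WT and 608, 371 and 331 in the mice labelled Mtg16-/-, a log2 difference of -0.72 (two-sided exact permutation test, p = 0.3).

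Cyp4v3, the mouse counterpart of the fatty acid hydroxylase CYP4V2 that is mutated in Bietti crystalline dystrophy, was the third most abundant member. It had a TPM of 307, 89.1 and 118 in WT and of 159.9, 86.2 and 89.4 in the mice labelled Mtg16-/-. Apart from the first replicate of each group, the libraries lay close together. Its log2 fold change, -0.46 (SE 0.44), was 0.06 without WT replicate 1. Cyp4b1 had a TPM from 18.1 to 59.7 in WT and from 14.96 to 24.7 in the others (log2 fold change -0.77, SE 0.39). The 5 Cyp4a members, in liver the classical targets of PPARα, were nearly absent, with a summed TPM between 0.32 and 1.18 in all 6 libraries and Cyp4a14 listed at 0.

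The Cyp2c subfamily has 15 members on chromosome 19, most of which are known for oxidising arachidonic acid and drugs. Only 6 were tested and 5 were listed at 0 in all libraries. Cyp2c65 had a TPM of 128, 50.3 and 66.3 in WT and of 59.3, 43.1 and 64.4 in the mice labelled Mtg16-/- (log2 fold change -0.45, SE 0.32). Cyp2c68 was at 67.5, 25.3 and 32.5 in WT and at 40.5, 26.9 and 34.6 in the others (log2 fold change -0.18, SE 0.33, and 0.22 without WT replicate 1). The groups overlapped for both genes. Summed over the 15 members, TPM was 272, 95.1 and 124 in WT and 143, 95.2 and 138 in the mice labelled Mtg16-/-, a log2 difference of -0.26 (two-sided exact permutation test, p = 0.9). The Cyp2c sum thus did not separate the groups, and its log2 difference was 0.18 without WT replicate 1. Cyp2c55, which hydroxylates arachidonic acid and is singled out here after its values were seen, was at 29.6, 7.69 and 10.8 in WT and at 22.4, 14.7 and 17.0 in the mice labelled Mtg16-/-. Its log2 fold change was 0.36 (SE 0.42) with all libraries and 0.89 (SE 0.22, adjusted p = 0.265 from limma) without WT replicate 1, when its groups were apart. It was -0.016 without WT replicate 2 and 0.20 without WT replicate 3 or Mtg16-/- replicate 1, so its size and sign depended on the mice included. Cyp2c66, Cyp2c29 and Cyp2c23 had log2 fold changes of -0.24, -0.02 and -0.38, with SEs from 0.35 to 0.51.

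**Figure D3:**
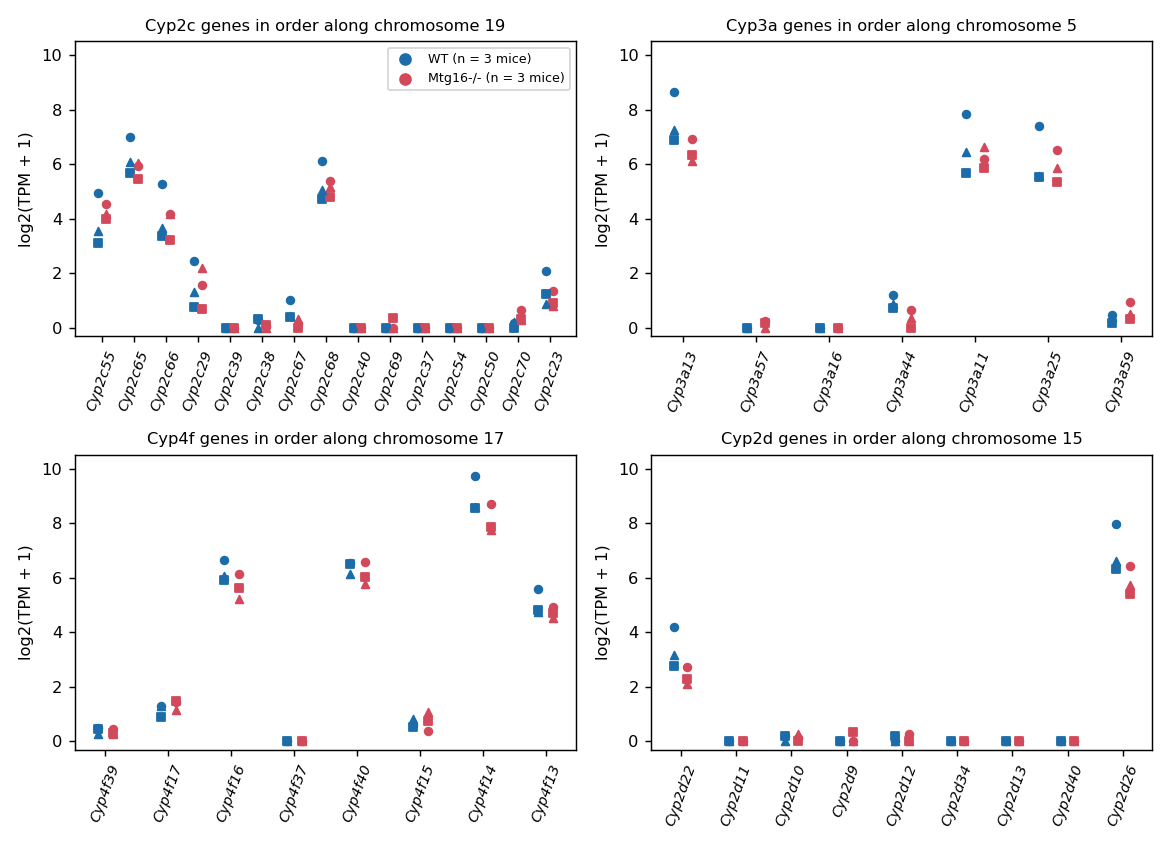
Level of every member of the Cyp2c, Cyp3a, Cyp4f and Cyp2d clusters as log2(TPM + 1), with genes in their order along the chromosome and not to distance. Each point is a library, blue for WT and red for the mice labelled Mtg16-/-, and the shape gives the replicate number (circle 1, square 2, triangle 3). Genes at high levels stand beside genes listed at or near 0 in each cluster. An example is Cyp2c68 next to Cyp2c40, although shared sequence leaves the values of this pair uncertain. Cyp4f18, on chromosome 8, is not drawn.

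Cyp2c68 is next to genes with closely similar promoters that were listed at or near 0 TPM in these libraries. Its mean TPM was 37.9, while Cyp2c40 was listed at 0 in all 6 libraries and Cyp2c69 had a mean TPM of 0.047. Of the 50-base words of the Cyp2c68 transcript 43.3% occurred in another gene, and 35.6% of the words occurred in Cyp2c40. How RSEM divided shared reads among these genes cannot be checked from TPM, so the value of Cyp2c68 and the 0 listed for Cyp2c40 are uncertain. The sum over the subfamily does not depend on that division. The 250 bases before the start sites, taken from RefSeq (GRCm38.p6), are shown to compare Cyp2c68 with these neighbours listed at or near 0. Cyp2c68 is read from chr19:39741102-39741351, Cyp2c40 from chr19:39812815-39813064 and Cyp2c69 from chr19:39886770-39887019, all on the minus strand. Capitals mark CAAAGTCCA, an element of the type bound by HNF4 factors, and in Cyp2c68 also a match to TNGCGTG, which is read there on the opposite strand.
Cyp2c68: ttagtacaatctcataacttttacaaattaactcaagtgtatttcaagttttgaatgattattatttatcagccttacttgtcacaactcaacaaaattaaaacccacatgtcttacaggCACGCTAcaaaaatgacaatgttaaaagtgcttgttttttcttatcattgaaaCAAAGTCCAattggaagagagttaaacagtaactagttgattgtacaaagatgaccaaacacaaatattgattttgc
Cyp2c40: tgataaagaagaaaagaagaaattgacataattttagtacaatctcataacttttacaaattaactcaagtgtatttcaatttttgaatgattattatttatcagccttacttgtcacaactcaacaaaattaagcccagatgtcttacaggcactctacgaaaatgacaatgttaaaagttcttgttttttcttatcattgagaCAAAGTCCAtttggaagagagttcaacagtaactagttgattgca
Cyp2c69: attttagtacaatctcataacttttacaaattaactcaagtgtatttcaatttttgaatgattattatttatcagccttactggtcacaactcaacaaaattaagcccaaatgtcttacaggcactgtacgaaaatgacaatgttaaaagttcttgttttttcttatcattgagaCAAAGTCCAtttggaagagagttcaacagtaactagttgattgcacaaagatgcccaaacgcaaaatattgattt

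After alignment, Cyp2c68 and Cyp2c40 were identical at 207 of 217 positions (95.4%), Cyp2c68 and Cyp2c69 at 232 of 246 (94.3%), and Cyp2c40 and Cyp2c69 at 217 of 220 (98.6%). CAAAGTCCA thus stands in the promoter of the expressed gene and of both silent near-copies. It begins 77 bases before the start of Cyp2c68, 45 before that of Cyp2c40 and 75 before that of Cyp2c69. The match to TNGCGTG begins 130 bases before the start of Cyp2c68. A match describes the letters only.

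CAAAGTCCA, searched on both strands, was in 0.381% of the 27025 mouse promoters and in 8 of the 62 members with a promoter entry. The 3 tested members that hold it are Cyp2c65, Cyp2c68 and Cyp3a11, and the 5 not tested are Cyp2c40, Cyp2c67, Cyp2c69, Cyp2c70 and Cyp3a16. These members share sequence by descent within their subfamilies, so they are not independent. TATAAA was in 24 of the 62 (13.0% of all promoters) and CAGCTG, an E-box, in 7 (12.8% of all promoters), among them the tested Cyp2b10 and Cyp4f13. The promoters of Cyp3a11 (chr5:145879855-145880104, minus strand) and Cyp2c65 (chr19:39060756-39061005, plus strand) are shown because they are the other abundant members with the HNF4-type element, which begins 109 and 116 bases before their starts. Capitals mark CAAAGTCCA and TATAAA.
Cyp3a11: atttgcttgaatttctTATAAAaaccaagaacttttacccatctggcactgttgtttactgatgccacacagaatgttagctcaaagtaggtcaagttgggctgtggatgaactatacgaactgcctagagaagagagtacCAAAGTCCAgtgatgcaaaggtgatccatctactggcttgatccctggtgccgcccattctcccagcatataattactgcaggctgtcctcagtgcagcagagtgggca
Cyp2c65: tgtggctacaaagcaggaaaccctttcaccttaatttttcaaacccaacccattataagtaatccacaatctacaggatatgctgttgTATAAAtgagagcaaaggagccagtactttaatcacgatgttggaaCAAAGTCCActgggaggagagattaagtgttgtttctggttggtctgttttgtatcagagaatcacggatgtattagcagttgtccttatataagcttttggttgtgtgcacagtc

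Cyp2e1 and Cyp2w1 were the members with higher values in the mice labelled Mtg16-/- at an unadjusted p under 0.05, and Cyp2s1 was higher without overlap. Cyp2e1, which oxidises ethanol and other small molecules, had a TPM of 1.54, 1.27 and 2.17 in WT and of 2.67, 4.36 and 5.08 in the mice labelled Mtg16-/-. All 3 of the latter were above all WT libraries, and WT replicate 1 did not stand out. With a log2 fold change of 0.90 (SE 0.25), Cyp2e1 had an adjusted p of 0.263 from limma, the lowest adjusted p among the members, and its fold change was 0.88 without WT replicate 1. Cyp2e1 is abundant in liver, and 8 liver markers summed to 2.08, 0.59 and 0.72 TPM in WT and to 1.32, 2.33 and 2.79 in the mice labelled Mtg16-/-, mostly from Apoh, with Fga, Fgg and Serpina3k at 0 and Alb at most 0.44. Their part in the Cyp2e1 values was not tested. Cyp2w1, known from fetal gut and colon tumours, was at 0.30, 0.49 and 1.61 in WT and at 1.60, 1.87 and 2.45 in the others, with a log2 fold change of 0.78 (SE 0.31, adjusted p = 0.313 from limma). The groups touched, since WT replicate 3 was level with Mtg16-/- replicate 1. At these low levels the log2(TPM + 1) scale understates ratios, and the ratio of mean TPM was 2.43 for Cyp2e1 and 2.47 for Cyp2w1. Cyp2s1, a P450 of epithelia outside the liver, was at 53.9, 46.7 and 51.5 in WT and at 65.3, 59.6 and 54.1 in the mice labelled Mtg16-/-. It had the smallest spread relative to its level among the named members, and its groups did not overlap, but the difference was small (log2 fold change 0.23, SE 0.12, adjusted p = 0.418 from limma).

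**Figure D4:**
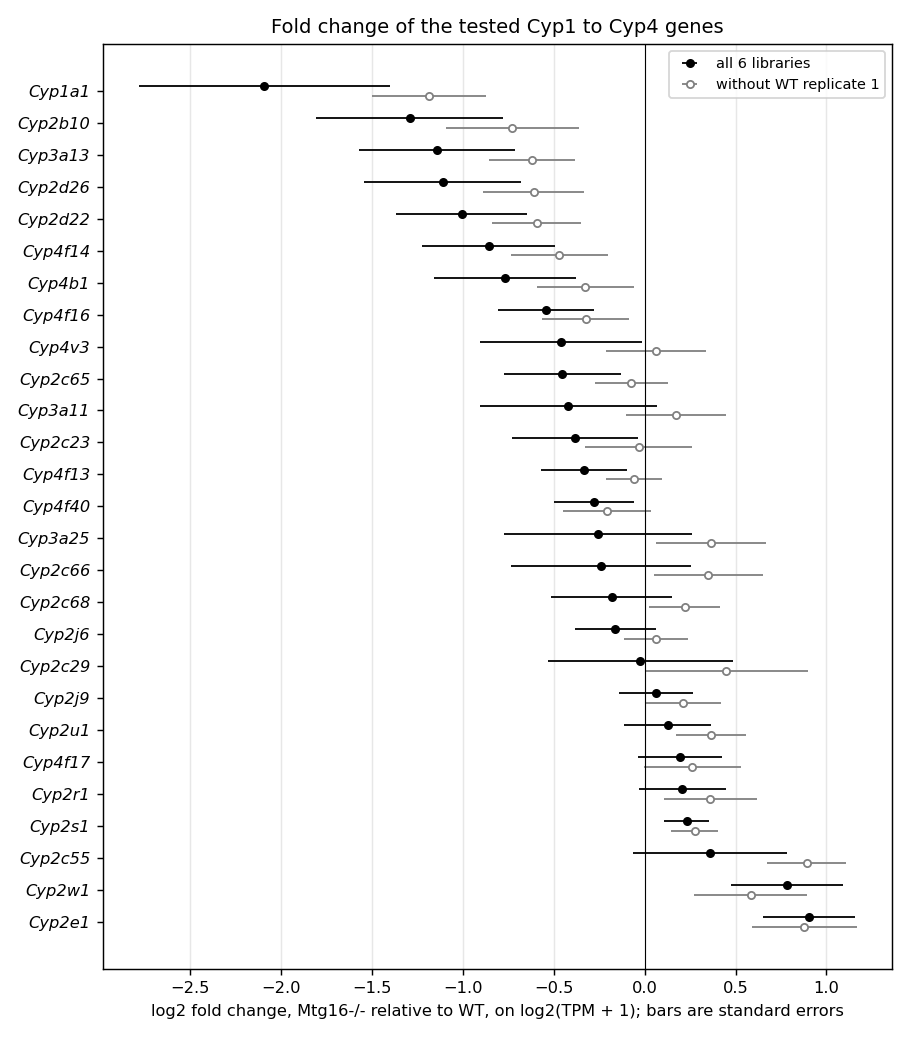
Log2 fold change of the 27 tested members, Mtg16-/- relative to WT on the log2(TPM + 1) scale, with bars of 1 SE from limma. Filled circles use all 6 libraries and open circles leave out WT replicate 1. Without that library Cyp1a1 stays the most negative at -1.19, while Cyp2c55 moves from 0.36 to 0.89 and is the highest with Cyp2e1 at 0.88.

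The other tested members of family 2 had fold changes near 0. Cyp2j6, an epoxygenase of arachidonic acid, was at 57.4, 31.5 and 40.5 in WT and at 40.3, 31.0 and 41.6 in the mice labelled Mtg16-/-, a log2 fold change of -0.16 (SE 0.22) with all libraries and of 0.06 without WT replicate 1. Cyp2u1, a fatty acid hydroxylase, was at 37.5, 19.4 and 26.0 in WT and at 35.6, 25.7 and 27.3 in the others (log2 fold change 0.13, SE 0.24). The groups overlapped for both. Cyp2j9 and Cyp2r1, a vitamin D hydroxylase, were low, at 2.12 to 3.30 and at 0.77 to 1.63 over the 6 libraries. With these SEs, equal levels in the groups were not shown.

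Of the 48 members that were not tested, the highest mean TPM was 0.743 and the highest value in any library 1.28. Chosen after the values were seen, 4 of them had groups that did not overlap, 3 lower and 1 higher. With no filter on low values, the groups were apart in 9.11% of 17505 genes for lower and 8.58% for higher values. That background leaves out genes at 0 in all 6 libraries, as 24 of the 48 members are, and it includes the tested genes. It is therefore not matched to these members, and nothing is concluded from the count. Cyp2c67 (1.03, 0.33 and 0.35 in WT, 0.10, 0 and 0.24 in the others), Cyp3a44 (1.28, 0.64 and 0.84 in WT, 0.59, 0 and 0.29 in the others) and Cyp4f18 (1.05, 0.72 and 1.27 in WT, 0.56, 0.64 and 0.22 in the others) were lower in the mice labelled Mtg16-/-. Cyp2c70 was higher there, at 0.13, 0 and 0.16 in WT and 0.56, 0.25 and 0.22 in the others. The depth behind these low values is unknown. Among the genes at 0 were Cyp2c37, Cyp2c50, Cyp2c54 and Cyp2d40. The first 3 are known as liver genes.

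Because WT replicate 1 was high for most members, each gene was also expressed as its percentage of the summed TPM of the 75 members in the same library. These shares sum to 100 within a library and were compared as a description, with no test. Of the 27 tested members, 5 had a lower share in every mouse labelled Mtg16-/- than in every WT library (background 1.28% of the 12268 genes, each divided by the same sum) and 7 had a higher share (background 9.44%). The members form this divisor, whose mean was 1942 in WT and 1166 in the mice labelled Mtg16-/-. Division by it raises the ratio of unrelated genes in the latter, and in TPM 11.1% of genes were lower without overlap. The share backgrounds are therefore not a like comparison for the members. The division also raises the shares of members at similar TPM in both groups, such as Cyp2u1 (mean 27.6 in WT and 29.5 in the mice labelled Mtg16-/-). Lower shares of some members entail higher shares of others, so the occurrence of both directions is not a result. The 5 lower were Cyp3a13, Cyp2d26, Cyp2b10, Cyp2d22 and Cyp1a1, and the 7 higher were Cyp2s1, Cyp2c68, Cyp2u1, Cyp2c55, Cyp2e1, Cyp4f17 and Cyp2r1. Cyp3a13 made up 12.6%, 9.61% and 10.8% of the sum in WT and 7.80%, 8.48% and 6.68% in the mice labelled Mtg16-/-. Cyp2d26 made up 7.79%, 6.49% and 6.84% against 5.59%, 4.41% and 5.04%. Cyp2c55 took 0.926%, 0.632% and 0.759% in WT and 1.46%, 1.56% and 1.65% in the others, and in these shares WT replicate 1 lay closer to the other WT mice than in TPM. Cyp2s1, for which WT replicate 1 did not stand out in TPM, took 1.69%, 3.84% and 3.63% in WT and 4.28%, 6.33% and 5.25% in the others. Cyp4f14, the most abundant member, overlapped, at 26.6%, 30.8% and 27.1% in WT and 26.9%, 24.4% and 21.0% in the mice labelled Mtg16-/-.

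**Figure D5:**
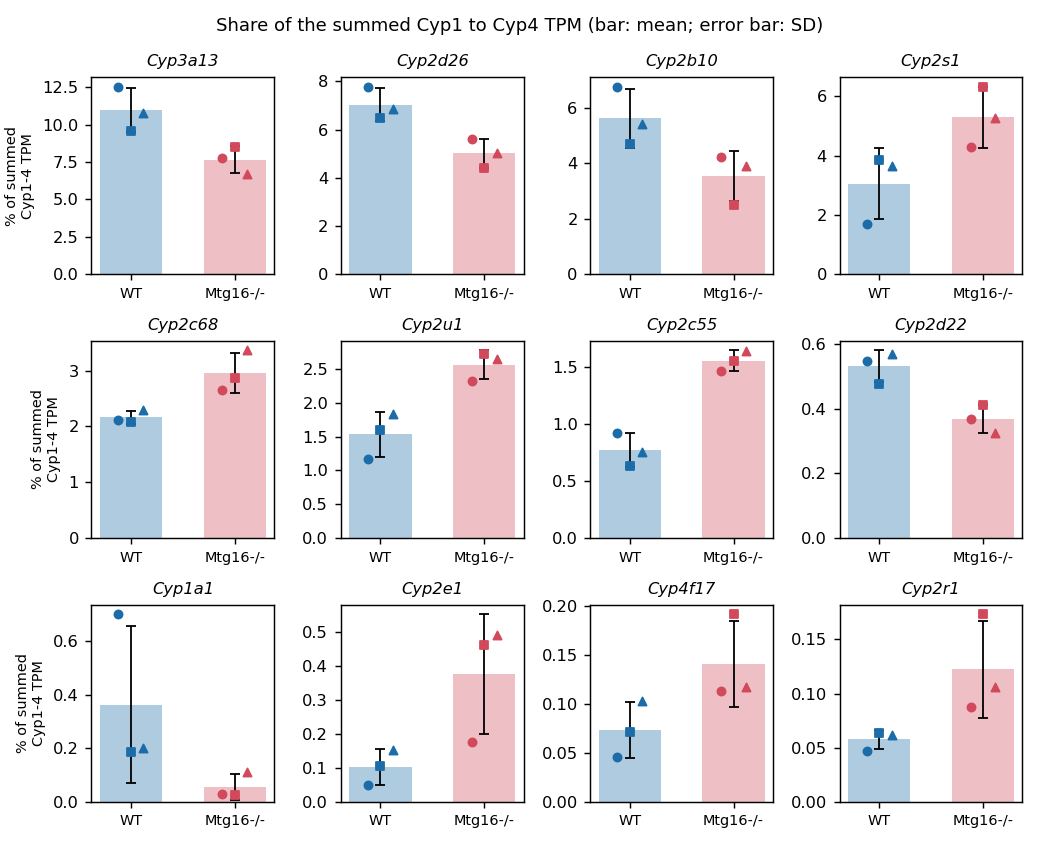
Percentage of the summed TPM of the 75 members taken by each of the 12 members whose shares did not overlap between the groups, with bars for the mean of 3 mice, error bars for the SD and 1 point per library (circle 1, square 2, triangle 3). Each panel has its own linear axis from 0. Shares without overlap lay in both directions, as for Cyp3a13 (11.0% in WT, 7.65% in the mice labelled Mtg16-/-) and Cyp2c55 (0.773% and 1.56%).

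The proteins that serve P450 enzymes were listed together with the receptors that induce them, from general knowledge and with earlier results of these data known. None of these listed genes was called at an adjusted p under 0.1 in limma. Of 11 partners, 4 were lower and 1 was higher at an unadjusted p under 0.05, and the median log2 fold change was -0.41. Over all 12268 tested genes, the backgrounds for this list and those below were 8.05% lower and 6.53% higher. For groups apart they were 11.1% lower and 9.94% higher. Por, the oxidoreductase that passes electrons to all microsomal P450s, was at 133, 72.4 and 92.7 in WT and at 75.2, 63.3 and 58.9 in the mice labelled Mtg16-/- (log2 fold change -0.55, SE 0.22), with only Mtg16-/- replicate 1 reaching into the WT range. Groups were apart for Cyb5b, a cytochrome b5 of the mitochondrial outer membrane (log2 fold change -0.63), for Pgrmc2, a haem-binding membrane protein (-0.42), for Alas1, the first enzyme of haem synthesis (-0.41), and for Ephx2, which hydrolyses the epoxides that P450s make from fatty acids (-1.20). Ephx1, the microsomal epoxide hydrolase, was higher, at 12.4, 11.3 and 14.3 in WT and 16.4, 16.3 and 20.4 in the others (0.45).

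Of 20 receptors and factors, 18 were tested, 4 of them lower and 1 higher at an unadjusted p under 0.05, with a median of -0.15. Log2 fold changes were -0.18 for Ahr (SE 0.24), -0.32 for Nr1i2, which encodes PXR (SE 0.15), and -0.74 for Nr1i3, which encodes CAR (SE 0.30, adjusted p = 0.322 from limma). The groups overlapped for these 3 receptors. Hnf4a had similar values in both groups, at 548, 566 and 615 in WT and 571, 558 and 523 in the mice labelled Mtg16-/-. Groups were apart for Ppard (-0.33), Nr1h3 (-0.52) and Esrra (-0.39), which were lower, and for Ppara (0.39) and Pparg (0.27), which were higher. Nr0b2, which encodes the co-repressor SHP and was below the filter, was at 1.41, 1.93 and 1.49 in WT and at 0.25, 0.17 and 0.15 in the mice labelled Mtg16-/-.

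Other targets of the same receptors gave small counts in both directions, to be read beside the backgrounds given for the partners. Of 6 AHR targets other than Cyp1 genes 4 were tested. Gsta1, a glutathione transferase, was lower without overlap (log2 fold change -1.15) and Nqo1, a quinone reductase, was higher without overlap (0.49), with a median of -0.19 over the 4. Of 9 PXR and CAR targets 7 were tested, and only Gsta1, which is on both lists, had groups apart (median -0.17). Of 14 PPARα targets, all tested, 3 were lower and 1 was higher at an unadjusted p under 0.05 (median -0.31). Groups were apart for Fabp1 (-1.99), Angptl4 (-1.27), Creb3l3 (-1.19) and Pdk4 (-0.68), which were lower. Fabp1 is also among the enterocyte markers. Of 12 genes of eicosanoid synthesis and breakdown 8 were tested, and only Ltc4s, leukotriene C synthase, had groups apart (-0.78, median -0.21). Of 12 vitamin D and retinoid genes 6 were tested, and only Rbp2 had groups apart (-2.05, median -0.41), which is again an enterocyte marker. Of 19 genes of the other P450 families 4 were tested, with Cyp51, of cholesterol synthesis, lower without overlap (-0.61) and Cyp39a1, an oxysterol hydroxylase, higher without overlap (0.70), while Cyp26c1, below the filter, was at 0.57, 0.16 and 0.17 in WT and at 0.10, 0 and 0 in the others.

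Markers of other cell types and gut regions were read in the same libraries, beside the same backgrounds of 8.05% lower and 6.53% higher. Of 7 tested Paneth cell markers, 5 were higher at an unadjusted p under 0.05 (median 0.96), with sums of 9505, 21897 and 12459 in WT and 33398, 26353 and 26545 in the mice labelled Mtg16-/-, and Ang5 was at 0. In 7 ileal markers none had an unadjusted p under 0.05 (median -0.24), and the sums overlapped, at 2747, 2835 and 1415 in WT and 3100, 2477 and 1329 in the others. Of 9 colon markers found, 6 were tested and 1 was higher (median 0.21), with sums of 351, 533 and 651 in WT and 993, 804 and 883 in the mice labelled Mtg16-/-, mostly from Ang4, which Paneth cells also make. The labels name the full gut, but the colonic factor Hoxb13 was listed at 0 in all libraries, Hoxd13 was at most 0.06 and the colonic water channel Aqp8 at most 0.15. For 9 immune markers the sums ran from 73.5 to 123 in WT and from 45.6 to 93.8 in the others (median -0.38). For 8 stromal markers, 3 of them tested, they ran from 12.2 to 17.0 and from 13.5 to 20.8 (median 0.15). The part of these cells and regions in the P450 values was not tested.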

How the data were processed

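Crypt RNA of 3 WT and 3 Mtg16-/- mice was depleted of ribosomal RNA, and libraries were made from 200 ng RNA with 14 PCR cycles. The submitters' processing notes name cutadapt 1.9.1, STAR 2.5.2a, RSEM 1.3.0, DESeq2 1.12.3 and the mm10 build, without their order. The deposited TPM values, which the authors rounded to 2 decimals, sum to the same total in each library and keep no depth. RSEM divides reads among genes with shared sequence, and the setting for strand is not given in the sources used here. DESeq2 was the authors' tool and was not run.

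Values were analysed as log2(TPM + 1), which understates the change of low genes. A mean TPM of 1 or more over all 6 libraries was required, and the 12268 genes that passed were tested with limma 3.58.1 (R 4.3.3, intensity trend, no covariate), with Benjamini-Hochberg adjustment over all of them and a call at an adjusted p under 0.1. The calculation was tested on simulated data. Subfamily sums were compared by two-sided exact permutation tests, which cannot go below 0.1. The members, gene lists and cell type markers were chosen with earlier results of these data known. The members named were those of at least 1 mean TPM with an unadjusted p under 0.05 or with groups that did not overlap, and the 15 members with the highest mean TPM. Cbfa2t3 was named as the targeted gene. Of the pathway lists, genes whose groups did not overlap were named, apart from 1 that is not reported here, and Por, the receptors Ahr, Nr1i2 and Nr1i3, Hnf4a and the other members given with values were singled out after their values were seen. All 75 members matched RefSeq (GRCm38.p6), which gave positions and, for 62 of them, promoters. Shared sequence was counted as 50-base words of the GENCODE vM21 transcripts of the 27 tested members. Alternatives were quantile normalization or median-ratio rescaling, another pseudocount (0.1), no filter or a filter at a mean TPM of 5, array weights, robust moderation, a fit without the intensity trend, the replicate number as a block, an adjusted p under 0.05 and each mouse left out.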

Additional observations from a re-analysis of the deposited data

How the results depend on the processing

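With all 6 libraries, 0 members were called in either direction, and this held under every alternative except array weights and the replicate block, including an adjusted p under 0.05 and each mouse left out. With array weights, 1 member was called lower (Cyp1a1, log2 fold change -1.59, adjusted p = 0.0863 from limma) and 1 higher (Cyp2e1, 0.78, adjusted p = 0.0984). At an unadjusted p under 0.05, robust moderation left 3 lower members (7.85% of all tested genes), and a mean TPM of at least 5 left 0 higher members (6.31% of all tested genes), since Cyp2e1 and Cyp2w1 were then not tested. With single mice left out, lower members numbered 0 to 9, higher members 1 to 2, members with groups apart 2 to 10 lower and 2 to 5 higher (counts chosen after seeing the data), and the median log2 fold change ran from -0.49 to 0.06. With single mice left out the log2 fold change changed sign for 6 named members. It ran from -0.47 to 0.22 for Cyp2c68, from -0.36 to 0.061 for Cyp2j6, from -0.91 to 0.17 for Cyp3a11, from -0.58 to 0.37 for Cyp3a25 and from -0.82 to 0.063 for Cyp4v3, each upper value being the one without WT replicate 1. For Cyp2u1 it ran from -0.093 without WT replicate 2 to 0.37 without WT replicate 1 and was -0.011 without Mtg16-/- replicate 1. For Cyp3a25 it was also above 0 without Mtg16-/- replicate 2 (0.030) and with array weights (0.042). Among other tested members, Cyp2c29, Cyp2c55, Cyp2c66 and Cyp2j9 also changed sign when a mouse was left out. None of these was called, and the cause was not tested. For the 19 named members, 263 values kept their sign and side of the threshold, 10 were newly called and 9 changed sign.

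The groups share replicate numbers, but neither the labels nor the methods say that a number marks a shared litter or day. After subtracting the mean of each group, libraries of the same number correlated at 0.429, 0.0753 and 0.237 across genes. Libraries of different numbers correlated between -0.331 and 0.198, the highest being WT replicate 2 with Mtg16-/- replicate 3. Deviations from a group mean sum to 0 for each gene. Positive values for the same number thus go with lower values for different numbers by construction. Whether a number marks shared handling was not tested. The main fit treated the libraries as unpaired, and the calls depend on this choice. With the replicate block, 8 members were called lower (Cyp1a1, Cyp2b10, Cyp2d22, Cyp2d26, Cyp3a13, Cyp4b1, Cyp4f14 and Cyp4f16) and 1 higher (Cyp2e1), beside 816 (6.65%) and 385 (3.14%) of the 12268 genes. At an unadjusted p under 0.05, 10 were lower, beside 14.1% of all tested genes.

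Depth is unknown, and no detection limit is given for the 48 members with a mean TPM under 1. Transcripts shared between paralogs limit Cyp2c68, Cyp3a25, Cyp4f16, Cyp2c66 and Cyp2c65, of which between 20.6% and 43.3% of 50-base words occurred in other genes.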
